A study of Mus musculus with 25 samples.

Results

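Crosslink events of GFP-tagged SRSF7 were compared between RNA of the polysomal and of the monosomal fraction of P19 cells, a mouse embryonal carcinoma line. The libraries were chosen by their titles: 2 immunoprecipitates of the polysomal fraction (poly 1 and poly 2) and 2 of the monosomal fraction (mono 1 and mono 2), 4 of the 25 libraries in the series. All 4 came from cells labelled SRSF7-GFP OE that were irradiated with UV light, and anti-EGFP is listed as their antibody, so the protein studied is a tagged one made in excess beside the cells' own SRSF7. Each fraction also has 1 library titled IgG, although the labels list anti-EGFP as the antibody of these libraries too, and their role as a control is therefore open to doubt. Levels in whole cells were taken from the 3 UV libraries and the 1 library without UV that used the anti-GFP antibody on the unchanged tagged protein. Per the design text 2 to 3 biological replicates were made for each tagged protein, but nothing ties poly 1 and mono 1, or poly 2 and mono 2, to the same culture.

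SRSF7 is a splicing factor of the serine/arginine-rich (SR) family that moves between nucleus and cytoplasm and also acts in mRNA export and 3' end formation. In iCLIP, UV light joins the protein to RNA it touches, and the reverse transcriptase tends to stop next to the joined nucleotide, so the end of each cDNA gives the position of 1 crosslink event. The piCLIP libraries apply this to ribosome fractions: a monosome is a single ribosome on an RNA, and polysomes are mRNAs that carry several ribosomes. The values are crosslink events, not amounts of RNA, and RNA levels in the fractions were not among the values used here, so more binding per RNA and more RNA in a fraction cannot be told apart.

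The polysomal libraries were shallower. They held 23145 events (poly 1) and 18357 events (poly 2), against 52553 events (mono 1) and 32015 events (mono 2), and the polysomal and monosomal libraries titled IgG held 11177 and 1153. Per the file headers all 6 libraries share a sequencing lane. The events lay on 18481 and 12375 distinct nucleotides in the polysomal libraries, against 38392 and 25253 in the monosomal libraries. Most nucleotides carried a single event, 87.2% and 80.7% of them in poly 1 and poly 2, against 81.3% and 87.2% in mono 1 and mono 2. A single nucleotide or a narrow site was therefore measured with very few events in most cases, and wider units are used below. Intervals and limits given with shares cover counting error only.

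The polysomal libraries were little alike. Over the 620 strand-specific windows of 5 kb that entered the test, the log2 values (with 50 added) of CPM, the events per 1000000 events of a library, correlated between poly 1 and poly 2 with r = 0.15. These r values describe windows that share libraries and differ in depth, and they are no test. Across the fractions r was 0.50 between poly 1 and mono 1, 0.11 between poly 1 and mono 2, 0.33 between poly 2 and mono 1 and 0.45 between poly 2 and mono 2, while mono 1 and mono 2 had r = 0.53. Only 2.85% of the nucleotides of poly 1 recurred in poly 2, whereas 7.93% recurred in mono 1 and 5.45% in mono 2, and these shares grow with the depth of the second library. Of the nucleotides of poly 2, 4.26% recurred in poly 1, 11.3% in mono 1 and 11.1% in mono 2. In the chi-square statistic per window, which is near 1 for sampling noise alone, poly 1 against poly 2 gave 22.9, the highest of the 6 pairs, and mono 1 against mono 2 gave 8.55, the lowest. With each nucleotide counted once poly 1 against poly 2 was still the highest at 6.49, and poly 2 against mono 2 was the lowest at 2.16, below mono 1 against mono 2 at 3.08. The expected split between 2 libraries was here still that of their event totals. The second values thus hold a difference in scaling as well and need not be near 1 for sampling noise alone. Both sets of values rest on other windows for each pair, 115 to 472 in the first case and 44 to 317 in the second. By the first set of values, none of the 4 libraries was therefore a repeat of another within sampling noise.

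The strongest single nucleotides of the polysomal fraction were also found in both libraries titled IgG. Ranked by the summed events of each fraction, the 10 strongest nucleotides of the polysomal fraction and the 10 of the monosomal fraction make 18 different nucleotides, since 2 are in both lists. All 10 of the polysomal list carried events in all 4 immunoprecipitates and in both IgG libraries. Of the monosomal list, 9 carried events in all 4 immunoprecipitates, 6 in the polysomal IgG library and 3 in the monosomal IgG library. The lists were ranked on these events, so the levels that follow are descriptions with no test.

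The strongest nucleotide, on the plus strand at chr7:53241857 (mm9), had 221 events in poly 1 and 48 in poly 2, against 53 in mono 1 and 8 in mono 2. The libraries titled IgG held 34 events (polysomal) and 3 events (monosomal) there, and no event was seen in the 3 whole-cell libraries. As a share of the library poly 1 was the highest, and both polysomal libraries lay above both monosomal ones. At chr15:72737571 (plus strand) the events were 123 and 7 in the polysomal libraries, against 35 and 9 in the monosomal ones, with 21 and 4 in the polysomal and monosomal IgG libraries and 70 in the whole-cell library without UV. That signal was thus also present without UV, at a nucleotide where the 3 whole-cell UV libraries held 8, 1 and 1 events. The groups overlapped there, since poly 2 with 0.0381% of its events lay below mono 1 with 0.0666%. The adjacent nucleotide chr15:72737572 was also highest in poly 1, with 98 and 19 events in poly 1 and poly 2 and 34 and 1 in mono 1 and mono 2. It held 44 events in the library without UV. Here the groups did not overlap, with 0.104% in poly 2 and 0.0647% in mono 1.

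A second set of these nucleotides was high in poly 2 and mono 1 rather than in poly 1. At chr2:40900319 (plus strand) 16 events were counted in poly 1 and 142 in poly 2, against 99 in mono 1 and 9 in mono 2. The monosomal IgG library, with 1153 events in all, held 91 events at this single nucleotide and the polysomal IgG library held 52. At chr1:109664097 (plus strand) the counts were 8 and 132 in the polysomal libraries, against 58 and 1 in the monosomal ones, with 8 and 36 in the polysomal and monosomal IgG libraries. The same order was seen at chr8:72898691 (plus strand; 17 and 84 against 62 and 10 events) and at chr2:90748001 (minus strand; 7 and 81 against 43 and 4 events). At these 4 nucleotides the polysomal and monosomal values overlap in share of events, because poly 1 lies below mono 1. The other 3 nucleotides, on the minus strand, were high in poly 1 alone of the 4 immunoprecipitates: chr11:62054002 with 75 and 9 events against 14 and 4, chr11:62054003 with 66 and 9 against 18 and 3, and chr9:95039818 with 67 and 5 against 5 and 4. The polysomal IgG library held 13, 15 and 15 events at them, and the monosomal one 2, 1 and 1. In share of events the polysomal IgG library lay above poly 2 and both monosomal immunoprecipitates at each.

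The strongest nucleotide of the monosomal fraction, with 108 summed events, was again chr2:40900319, and chr8:72898691 with 72 was also in its list, so both hotspots seen with IgG belong to both fractions. The other 8 nucleotides were not in the polysomal list. On the plus strand of chromosome 16, 3 of them lay close together: chr16:33047700 had 12 and 9 events in poly 1 and poly 2, against 37 and 50 in mono 1 and mono 2, and chr16:33047728 had 21 and 15, against 40 and 45. The last of these, chr16:33047726, had 23 and 6, against 38 and 23. These nucleotides held 0 events in the monosomal IgG library and 1 to 4 in the polysomal one. Their 5 kb window held 4 events in the monosomal and 37 in the polysomal IgG library. At chr3:85603517 (plus strand) 1 and 5 events in the polysomal libraries stood against 33 and 37 in the monosomal ones, with no event in either IgG library. The 5 kb window around it held 159 events in the polysomal and 2 in the monosomal IgG library. At chr9:55756629 (minus strand) the counts were 2 and 0 against 43 and 22, and at the nearby chr9:55756624 2 and 10 against 53 and 13, here with 14 events in the polysomal IgG library. The 5 kb window of these nucleotides of chromosome 9 held 81 events in the polysomal and 2 in the monosomal IgG library. At the last 3 nucleotides both monosomal libraries lay above poly 1, while poly 2 exceeded mono 2 at chr9:55756624 in share of events. The remaining nucleotides of the list were chr1:13805393 (plus strand; 21 and 5 events against 63 and 10) and chr4:86124455 (plus strand; 1 and 19 against 23 and 50).

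**Figure D1:**
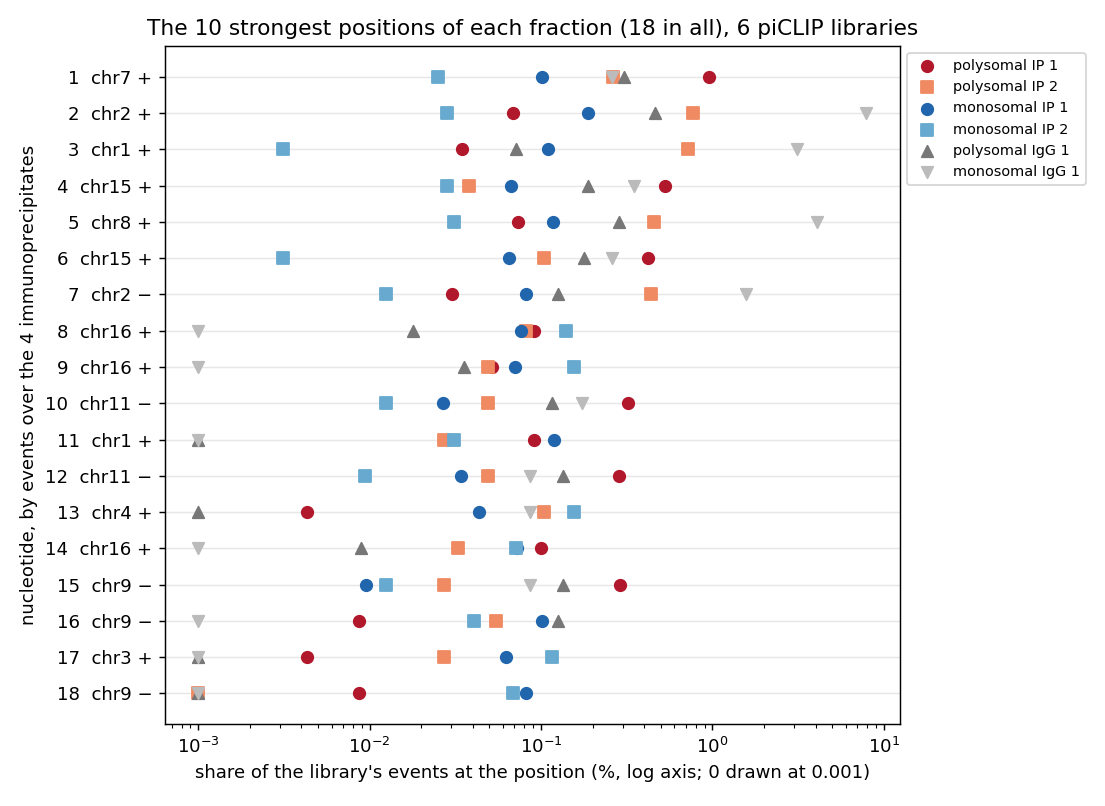
Share of each library's events (percent, log axis; a share of 0 is drawn at 0.001) at the 18 nucleotides that make up the 10 strongest of each fraction, with 1 point per library for the polysomal and monosomal immunoprecipitates and the 2 libraries titled IgG. At the 10 nucleotides of the polysomal list either poly 1 or poly 2 is furthest to the right of the 4 immunoprecipitates. Both IgG libraries have events at them, at varying distance from that point. The 3 nucleotides of chromosome 16 have the 4 immunoprecipitates closer together. They have no event in the monosomal IgG library, which held 1153 events in all.

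Events were more concentrated on a few nucleotides in the polysomal libraries, as far as nucleotides seen with IgG are counted. The 10 strongest nucleotides of each library held 3.51% and 4.06% of its events in poly 1 and poly 2, against 1.07% and 1.16% in mono 1 and mono 2. The means were 3.78% ± 0.389 in the polysomal and 1.11% ± 0.0637 in the monosomal fraction (SD, n = 2 each), and the groups did not overlap. The polysomal and monosomal IgG libraries held 3.44% and 24.2% in their own 10 strongest nucleotides. The 100 strongest nucleotides held 7.76% and 10.06% in the polysomal libraries, against 4.88% in each monosomal library, and the 1000 strongest held 18.6% and 29.7%, against 14.6% and 17.0%. With 2 libraries against 2, the exact permutation test (two-sided) cannot give a p below 0.333, which it gave for all 3 shares. These shares also depend on depth, since 1000 nucleotides are a larger part of a shallow library: counted once each, they made up 5.41% and 8.08% in poly 1 and poly 2, against 2.60% and 3.96% in mono 1 and mono 2.

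With every nucleotide of the IgG libraries left out, the difference in the 10 strongest was no longer seen. That step removed all 10 nucleotides of the polysomal list, which both IgG libraries held, so a fall in the polysomal share was built into it. The polysomal IgG library held 6970 nucleotides and the monosomal one 687, so the step drew mostly on the former. The share was then 0.748% and 0.792% in poly 1 and poly 2, against 0.736% and 0.890% in mono 1 and mono 2, and the groups overlapped (difference of means -0.0426 percentage points, exact permutation p = 1). Nucleotides present in an IgG library carried 8.20% and 12.7% of the events of poly 1 and poly 2, against 8.21% and 7.31% in mono 1 and mono 2. Of the polysomal libraries, poly 2 thus stood above the others, and poly 1 did not. For the 100 strongest the difference of means was 0.337 percentage points in place of 4.03, with overlap (exact permutation p = 0.667). For the 1000 strongest nucleotides poly 2 stayed highest without the IgG nucleotides at 25.7%, while poly 1 at 13.8% lay between mono 1 at 11.0% and mono 2 at 14.7%.

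At equal depth the polysomal libraries also held fewer distinct nucleotides, with the gap coming mostly from poly 2. Reduced to 18319 events each by calculation, poly 1 held 15040 nucleotides (expected number) and poly 2 held 12354, against 15521 in mono 1 and 15392 in mono 2. The means were 13697 ± 1899 and 15457 ± 91.2 (SD, n = 2 each), with no overlap and p = 0.333 in the exact permutation test. With IgG nucleotides left out the groups overlapped, at 12931 ± 1618 and 14151 ± 185 (exact permutation p = 0.667). Without poly 2 the difference was -417 nucleotides, against -1760 with all 4 libraries. The number of 5 kb windows with an event showed no such order, at 11532 and 9477 in the polysomal and 9812 and 10198 in the monosomal libraries.

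**Figure D2:**
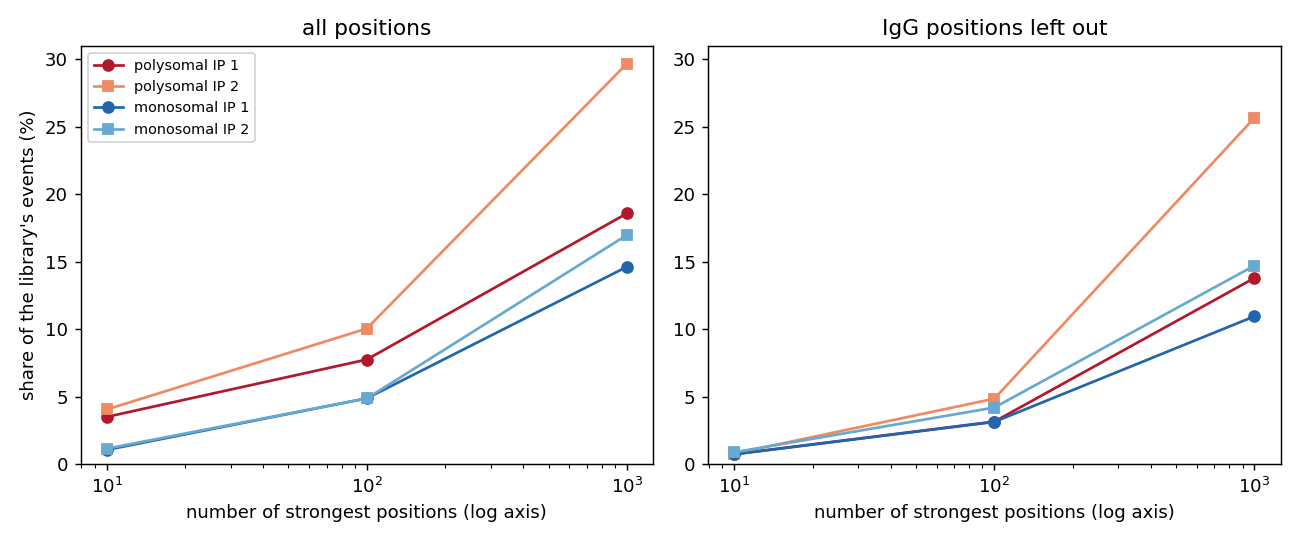
Share of a library's events (percent) held by its 10, 100 and 1000 strongest nucleotides (log axis), for the 4 immunoprecipitates, with all nucleotides (left) and without those seen in either library titled IgG (right). Both polysomal lines lie above both monosomal lines on the left, and on the right the 4 libraries meet at 0.736% to 0.890% for the 10 strongest.

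Wide windows were compared next, since sums over 5 kb gather the scattered events of a transcript. The files hold coordinates of mouse build mm9 without gene names, and no annotation of that build was used here, so windows are given by coordinate and strand, no gene, exon or UTR is assigned to them, and neither lists of genes nor markers of P19 cells could be checked. The 15 windows with the highest mean CPM held 6.30% and 5.32% of the events of poly 1 and poly 2, against 8.05% and 5.61% in mono 1 and mono 2. Each immunoprecipitate had another leading window. In poly 1 it was chr15:72735001-72740000 on the plus strand with 241 events, in poly 2 chr2:40900001-40905000 on the plus strand with 209, in mono 1 chr17:80600001-80605000 on the minus strand with 1044, and in mono 2 chr16:33045001-33050000 on the plus strand with 354. In CPM, 5 of the 15 windows had a positive and 10 a negative fitted log2 fold change of the polysomal over the monosomal fraction, and the groups overlapped in 7 of them. Over all 620 tested windows 105 values were positive and 515 negative. There both polysomal libraries lay above both monosomal ones in 4.03% of windows and below both in 40.6%.

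Among the strongest windows, those with broadly spread events had negative fitted values, none of which passed the test described below. The strongest, chr17:80600001-80605000 (minus strand), had 684 distinct nucleotides, and the central 90% of its events spanned 4013 nt. It held 219 and 72 events in poly 1 and poly 2, against 1044 and 195 in mono 1 and mono 2, which is 6709 ± 3929.5 and 13019.6 ± 9768 CPM (SD, n = 2 each). The groups overlapped, since poly 1 lay above mono 2, and the whole-cell UV libraries held 11225 ± 3589 CPM (n = 3). The polysomal and monosomal IgG libraries held 0 and 9 events there (0 and 7806 CPM). The fitted log2 fold change was -0.85 ± 1.04 (SE), and it turned to 0.046 without mono 1.

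A pair of adjacent windows on the minus strand of chromosome 19 showed the same order. The first, chr19:5795001-5800000, had 516 distinct nucleotides and held 107 and 56 events in the polysomal libraries, against 564 and 109 in the monosomal ones (log2 fold change -0.69 ± 0.99, and 0.16 without mono 1). The second, chr19:5800001-5805000, held 51 and 33, against 267 and 124 (-1.15 ± 0.87), and here both polysomal libraries lay below both monosomal ones in CPM. Both are strong in whole cells, at 7642 ± 1153 and 4028 ± 1717 CPM (SD, n = 3). The polysomal and monosomal IgG libraries held 3 and 4 events in the first window and 1 and 4 in the second. In chr17:39980001-39985000 (plus strand), also strong in whole cells with 6448 ± 1748 CPM, 67 and 39 events stood against 322 and 166 (2516 ± 547 and 5675 ± 666 CPM, SD, n = 2 each), with no overlap and a log2 fold change of -1.18 ± 0.87. The library without UV held 10573 CPM in that window, above the UV libraries of whole cells. The polysomal and monosomal IgG libraries held 29 and 19 events there (2599 and 16479 CPM). The polysomal IgG level thus lay between poly 2 and poly 1, and the monosomal one above both monosomal immunoprecipitates. In chr5:89630001-89635000 (minus strand) the counts were 102 and 21, against 426 and 103, with overlap, while whole cells held only 5.20 ± 1.84 CPM there. The polysomal and monosomal IgG libraries held 0 and 1 events in it. In all these broad windows the monosomal IgG library lay above the polysomal one in CPM, from few events, and this order was not tested.

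Narrower clusters of 23 to 54 nucleotides were strong in piCLIP and weaker in whole cells, at means of 2.75 to 109 CPM. The highest of these means was that of chr3:85600001-85605000 (109 ± 106 CPM, SD, n = 3). The window chr16:33045001-33050000 held 150 and 114 events in the polysomal libraries, against 335 and 354 in the monosomal ones, and the central 90% of them lay within 60 nt. At 6361 ± 195 and 8746 ± 3326 CPM it was the most even of the 15 windows between the fractions (log2 fold change -0.40 ± 0.90, and 0.52 with each nucleotide counted once), whereas whole cells held 3.73 ± 4.59 CPM. Of its 54 nucleotides, 20 carried events in all 4 immunoprecipitates. The polysomal and monosomal IgG libraries held 37 and 4 events in this window (3316 and 3469 CPM). At chr3:85600001-85605000 (plus strand) 8 and 64 events, against 265 and 276, lay mostly within 36 nt, with a log2 fold change of -2.38 ± 1.27 and no overlap. The polysomal IgG library held 159 events in this window, its own strongest. At chr2:71175001-71180000 (plus strand) 6 and 26 events stood against 230 and 130 (-2.70 ± 1.09) without overlap, again with 56 events in the polysomal IgG library. Also in this class were chr16:13365001-13370000 (minus strand; 9 and 51 against 120 and 190 events, 122 in the polysomal IgG library) and chr9:55755001-55760000 (minus strand; 14 and 31 against 300 and 104 events, 81 in the polysomal IgG library). In these last 4 windows, with 56 to 159 polysomal IgG events, poly 2 lay above poly 1. The polysomal IgG library is shallower than the immunoprecipitates, and in CPM it lay above all 4 of them in each of these windows. Its level was 14250 CPM in the chromosome 3 window, 10934 in chr16:13365001-13370000, 7259 in that of chromosome 9 and 5019 in that of chromosome 2. With each nucleotide counted once, the log2 fold change was -0.45 in place of -2.38 for the chromosome 3 window, -0.81 in place of -2.70 for that of chromosome 2, -0.19 in place of -1.64 for chr16:13365001-13370000 and -0.13 in place of -1.98 for that of chromosome 9.

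The 5 of the 15 windows with more polysomal events were single points. They had 4 to 6 distinct nucleotides, and the central 90% of their events spanned 1 to 5 nt, against 15 to 4013 nt in the other 10 windows. They contain the polysomal hotspots described above: chr7:53240001-53245000 (plus strand) held 231 and 49 events, against 54 and 8, with a log2 fold change of 3.51 ± 1.09 and no overlap, and 96.5% of its events lay on chr7:53241857. In chr11:62050001-62055000 (minus strand) 219 and 30 events stood against 50 and 9 (3.06 ± 1.12, no overlap), and in chr15:72735001-72740000 (plus strand) 241 and 27 against 73 and 10 (2.70 ± 1.24, no overlap in CPM). In chr2:40900001-40905000 (17 and 209 against 105 and 10 events, 1.99 ± 1.51) and chr1:109660001-109665000 (plus strand; 14 and 152 against 65 and 3, 2.85 ± 1.61) the groups overlapped. Whole cells held no event in 4 of these 5 windows, and in the chromosome 15 window 24.9 ± 41.0 CPM with UV and 1753 CPM without UV. All 5 held events in both IgG libraries, 12 to 55 in the polysomal and 3 to 99 in the monosomal one. With IgG nucleotides left out, or with each nucleotide counted once, none of the 5 reached the number of events needed for the test. Single libraries moved these values widely: without poly 2 the log2 fold change was 0.14 for the chromosome 2 window and 0.77 for that of chromosome 1, and without poly 1 it was 3.96 and 4.62. For the windows of chromosomes 7, 11 and 15 it ranged from 2.32 to 4.45, from 1.80 to 4.32 and from 1.32 to 4.18 when a library was left out.

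**Figure D3:**
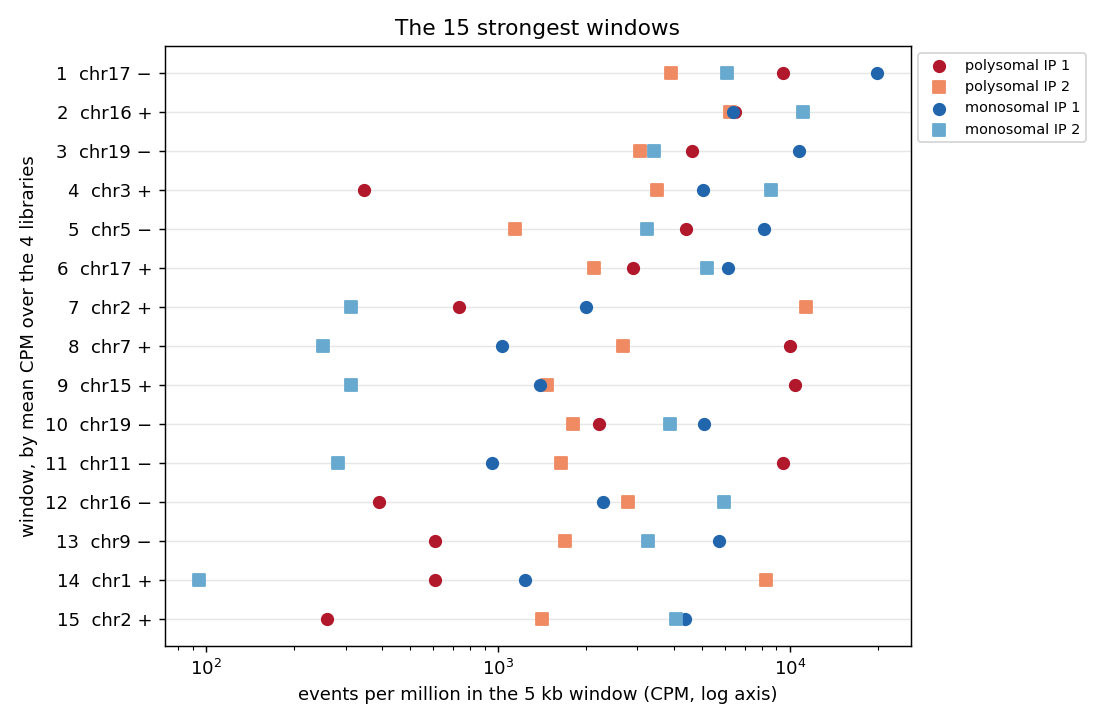
Level of the 15 strongest strand-specific 5 kb windows (CPM, log axis) in poly 1, poly 2, mono 1 and mono 2, with windows in the order of their mean over the 4 libraries and 1 point per library. Windows 1 to 3 have polysomal and monosomal points mixed or close, and windows 7, 8, 9, 11 and 14, the single-point hotspots, have a polysomal library far to the right and mono 2 at the left.

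Across the windows with at least 20 events over the 4 libraries no difference passed the test. With limma voom and Benjamini-Hochberg adjustment, 0 of 620 windows (0.0%) had an adjusted p under 0.05, in either direction, and 8 had an unadjusted p under 0.05. limma-trend and a negative binomial quasi-likelihood test also called 0, with 23 and 27 windows at an unadjusted p under 0.05. The lowest adjusted p was 0.748, and the named windows lay between 0.748 and 0.837. Without the filter on low windows 23 of 48043 were called, 20 higher and 3 lower in the polysomal fraction. The absence of calls in the filtered windows does not show that the fractions bind alike.

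Most tested windows had a negative value. The median log2 fold change of the polysomal over the monosomal fraction was -0.84 over the 620 windows, with 105 above and 515 below 0, and the median was -0.73 with scaling by a trimmed mean of log ratios. Both polysomal libraries lay above both monosomal ones in 25 windows (4.03%) and below both in 252 (40.6%). The 620 windows together held 22.9% and 26.5% of the events of poly 1 and poly 2, against 36.2% and 35.5% in mono 1 and mono 2. The filter counts raw events, of which the monosomal libraries have more, so the median depends on it. With a filter on a mean of 200 CPM, which weights the libraries alike and was chosen after seeing the data, 476 windows had a median of -0.76 and held 21.2% and 25.4% of the polysomal events, against 32.8% and 32.4% of the monosomal ones. With no filter the median was 0.28 over 48043 windows, most of which hold a few events at most.

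Windows without a whole-cell event had mostly positive values. The piCLIP and whole-cell files differ in the result type of their headers, so absence from whole cells and a difference in that result type cannot be told apart. Of the 620 windows, 40 held no event in the 3 whole-cell libraries, and 29 of these were higher and 11 lower in the polysomal fraction, with a median log2 fold change of 1.80. They held 4.24% and 4.83% of the events of poly 1 and poly 2, against 1.30% and 0.774% of those of mono 1 and mono 2, and 3.24% and 22.3% in the polysomal and monosomal IgG libraries. The other 580 windows had a median of -0.88, and the 101 with a whole-cell mean of at least 100 CPM had 10 above and 91 below 0 and a median of -1.35. Of the 40 windows, 17 held at least 10 IgG events, with 14 above and 3 below 0. The part of the IgG signal in these values was not tested.

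Shares of events over the whole genome had the same order. The 1000 strongest 5 kb windows of whole cells held 9.61% and 8.57% of the events of poly 1 and poly 2, against 17.6% and 12.6% of mono 1 and mono 2 (means 9.09% ± 0.737 and 15.1% ± 3.55, SD, n = 2 each, exact permutation p = 0.333). In the IgG libraries the share was 9.63% (polysomal) and 10.8% (monosomal), so that the polysomal immunoprecipitates were at or below the IgG level. Windows with no whole-cell event held 18.4% and 23.9% of the polysomal events, against 11.0% and 17.2% of the monosomal ones, with 27.3% and 36.0% in the polysomal and monosomal IgG libraries. Single nucleotides gave the same order, since 12.6% and 12.8% of the polysomal nucleotides were also whole-cell nucleotides, against 19.2% and 16.6% of the monosomal ones. For the polysomal and monosomal IgG libraries this share was 11.8% and 18.8%, so the IgG libraries had this order too. In each of these 3 shares the groups did not overlap.

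**Figure D4:**
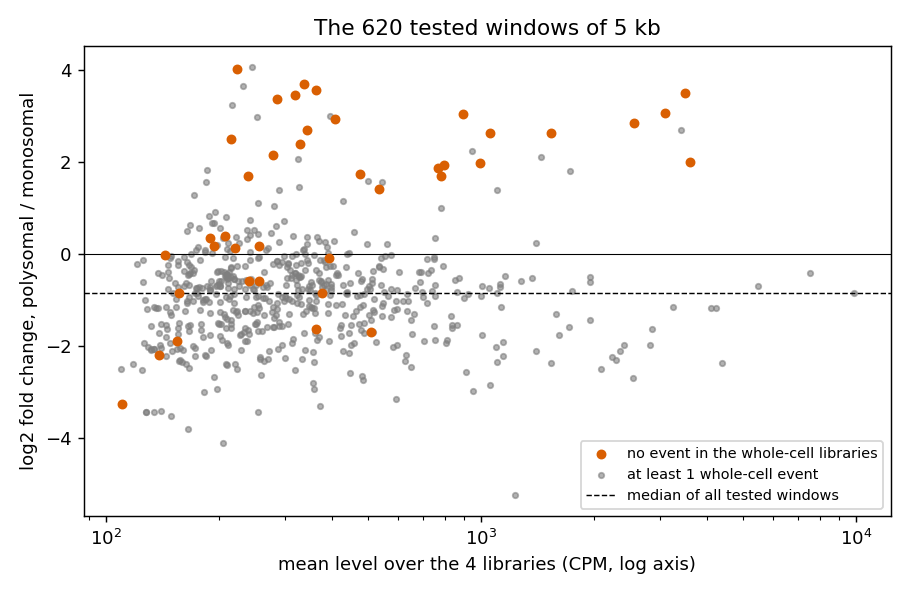
Fitted log2 fold change of the polysomal over the monosomal fraction against the mean level over the 4 libraries (CPM, log axis) for the 620 tested windows of 5 kb, with the 40 windows that held no whole-cell event in orange and the median of -0.84 as a dashed line. Most windows lie below 0, and the orange points lie mostly above it, also among the strongest windows.

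The windows with the lowest unadjusted p-values in each direction follow as values, since none passed the adjustment. Lowest among those with fewer polysomal events was chr3:127245001-127250000 (plus strand), with 2 events in poly 1 and 0 in poly 2, against 194 in mono 1 and 36 in mono 2. No event lay there in either IgG library, while the whole-cell libraries held 585 ± 264 CPM (SD, n = 3), so the polysomal libraries lay below the monosomal and the whole-cell ones. The ratio of the monosomal to the polysomal level was 56.5 (95% counting interval 15.5 to 469), and the fitted log2 fold change was -5.23 ± 1.73 (limma voom, unadjusted p = 0.0197, adjusted p = 0.748). The counting interval pools the events of each fraction and leaves out the spread between its libraries. In 3 more windows neither polysomal library held an event. At chr3:96070001-96075000 (plus strand) the monosomal libraries held 15 and 17 events, and the polysomal level was at least 5.24-fold lower, taking 3 events over both libraries as the limit. At chr12:60170001-60175000 (plus strand) they held 20 and 9 (at least 4.75-fold lower), and at chr5:143665001-143670000 (minus strand) 17 and 6 (at least 3.77-fold lower). These 3 windows, like the first, reached 20 events through the monosomal libraries alone and were picked by their p. The ratio and the bounds therefore describe them and are no evidence on the fractions. All 3 windows lie at 117 to 182 CPM in whole cells, and their events were spread over 3062 to 3838 nt, with 18 to 24 distinct nucleotides.

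Among the same 8 windows 3 were again narrow and held polysomal IgG events. They were chr4:56880001-56885000 (minus strand; 2 and 11 events against 139 and 28, with 83 polysomal IgG events), chr13:64660001-64665000 (minus strand; 3 and 7 against 40 and 40, with 32) and chr9:110140001-110145000 (plus strand; 5 and 7 against 56 and 37, with 6). In CPM the polysomal IgG library lay above all 4 immunoprecipitates in the windows of chromosomes 4 and 13 (7439 and 2868 CPM). In that of chromosome 9 it lay between the polysomal and the monosomal libraries (538 CPM). In each of the 3 windows both polysomal libraries lay below both monosomal ones, at log2 fold changes of -2.85, -2.18 and -1.89. The first was -0.80 with IgG nucleotides left out and -1.25 without poly 1. With each nucleotide counted once the 3 values were -1.24, -1.13 and -0.76. The eighth was chr2:71175001-71180000, described above.

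Of the 8 windows with the lowest unadjusted p and more polysomal events, 7 were single points seen with IgG. Besides the windows of chromosomes 7, 11 and 15 these were chr2:35600001-35605000 (minus strand; 66 and 9 events against 11 and 1), chr9:95035001-95040000 (minus strand; 121 and 8 against 19 and 4), chr8:82000001-82005000 (minus strand; 12 and 37 against 26 and 5) and chr12:63685001-63690000 (plus strand; 9 and 62 against 22 and 1). The last had overlapping groups. In chr8:82000001-82005000 all 80 events lay on the single nucleotide 82003456. The exception was chr9:59520001-59525000 (plus strand), with 7 and 9 events in poly 1 and poly 2, against 4 and 0 in mono 1 and mono 2. Its events lay on 12 nucleotides over 3742 nt, no event was seen in the IgG libraries, and whole cells held 155 ± 25.2 CPM. Its log2 fold change was 3.23 ± 1.43 (limma voom, unadjusted p = 0.0596, adjusted p = 0.748), from 20 events in all.

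Windows of 100 kb gave the same picture. Of 877 tested, 0 were called by limma voom and 18 had an unadjusted p under 0.05, with a median log2 fold change of -0.59. Each of the 10 strongest contained 1 of the 5 kb windows above, which held most of its events. On the minus strand of chromosome 17 (80600001 to 80700000) 266 and 78 events stood against 1162 and 229, and on the plus strand of chromosome 7 (53200001 to 53300000) the counts of the 5 kb window were also those of the 100 kb window.

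Shares of events per chromosome differed little. Among the 22 chromosomes, the mitochondrial genome included, 0 (0.0%) passed limma voom, and 0 had an unadjusted p under 0.05. limma-trend and the negative binomial test also called 0. The nuclear chromosomes lay between log2 fold changes of -0.33 and 0.39, with 11 within 0.1 of 0. Both polysomal shares were above both monosomal ones on 4 chromosomes (18.2%) and below both on 4 (18.2%). Chromosome 15 had the highest value, with 4.69% and 3.22% of the events of poly 1 and poly 2, against 3.16% and 2.75% in mono 1 and mono 2 (log2 fold change 0.39 ± 0.19). Without the 20 strongest windows it was 0.07, so most of the value lay in those windows. The lowest nuclear value was that of chromosome 19, with 2.76% and 2.64%, against 3.68% and 2.97% (-0.33 ± 0.17, and -0.09 without the 20 strongest windows). Chromosome 17 followed with 5.11% and 4.86%, against 7.18% and 5.41% (-0.29 ± 0.15, and -0.13 without those windows).

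Events on the mitochondrial genome were rare, with the lowest shares in the polysomal libraries. Mitochondria translate their own mRNAs on ribosomes of their own, apart from those of the cytoplasm. It held 10 events in poly 1 and 0 in poly 2, against 75 in mono 1 and 23 in mono 2. The shares were 0.0432% in poly 1 (exact 95% binomial interval 0.0207% to 0.0794%) and 0% in poly 2, where 0 events allow up to 0.0163% by the 3-event limit (exact upper bound 0.0201%). In mono 1 the share was 0.143% (0.112% to 0.179%) and in mono 2 0.0718% (0.0455% to 0.108%). The groups did not overlap, at 0.0216% ± 0.0306 and 0.107% ± 0.0501 (SD, n = 2 each), although the intervals of poly 1 and mono 2 do. The exact permutation test gave its smallest p, 0.333, and the fitted log2 fold change was -3.34 ± 1.48 (limma voom, adjusted p = 0.525). It was -1.31 without poly 2, -5.38 without poly 1 and -2.11 with the negative binomial test. The polysomal IgG library held 4 events (0.0358%) and the monosomal one 0, which allows up to 0.260%, so poly 1 lay near the IgG level. Without UV, whole cells held 1.34% of their events there, against 0.323% to 0.534% with UV. The difference of the mean shares was -0.0857 percentage points with all libraries and ranged from -0.121 to -0.0502 when 1 library was left out.

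**Figure D5:**
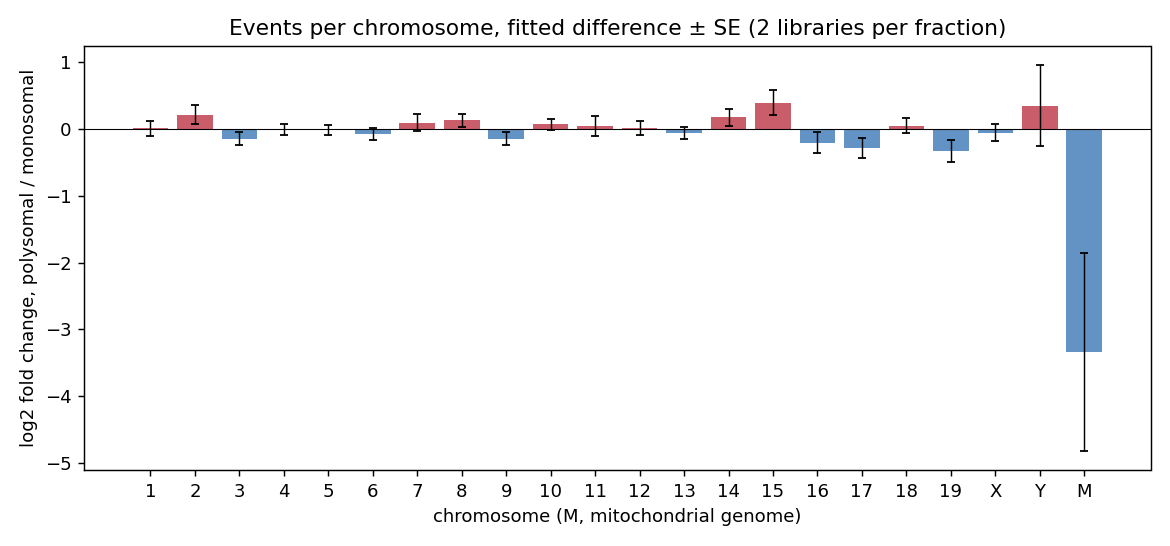
Fitted log2 fold change of the events of each chromosome, polysomal over monosomal fraction (bars, 2 libraries each), with the SE as error bars. The nuclear chromosomes lie between -0.33 and 0.39, and the mitochondrial genome (M) stands at -3.34 with the widest error.

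The deposited piCLIP peak list is a single list for all 4 libraries. Its 20437 nucleotides carry the authors' own scores, which equalled the summed events of the 4 immunoprecipitates at each of them, so the list is not independent of these libraries and no test is given. Only 209 peaks had events in all 4 libraries, and 16938 (82.9%) had events in a single one. Events came from the polysomal fraction alone in 5117 peaks (25.0%), from the monosomal fraction alone in 13014 (63.7%) and from both in 2306 (11.3%). A score of 1 was carried by 11368 peaks (55.6%), and such a peak can only fall in a single fraction. Since the monosomal libraries were also deeper, these counts do not compare the fractions. The peaks held 28.6% and 45.2% of the events of poly 1 and poly 2, against 35.4% in each of mono 1 and mono 2, so the polysomal libraries lay on either side of the monosomal ones. In the polysomal and monosomal IgG libraries 22.3% and 32.0% of the events lay on peak nucleotides.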

How the data were processed

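The deposited files hold 1 score per crosslinked nucleotide on mouse build mm9. It counts cDNAs, carries a minus sign on the minus strand, and goes with annotation Ensembl 59, per the file headers. CASAVA 1.4 was used, per the submitters' processing notes. Neither an aligner nor a step against PCR duplicates is named in the labels or headers. The authors kept as peaks positions whose score passed 100 permutations within 15 nt at a false discovery rate of 0.05, per the headers of the peak file.

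Absolute scores (events) were summed per library over strand-specific windows of 5 kb or 100 kb and over 22 chromosomes, without unplaced contigs. CPM is the window sum per 1000000 of these events. Windows with at least 20 events over the 4 libraries (15 with 3 libraries) were tested with voom, lmFit and eBayes of limma 3.58.1 (R 4.3.3, Benjamini-Hochberg adjustment, threshold 0.05). Fold changes are on voom's log2 scale. Alternatives were limma-trend with a prior count of 2, a negative binomial quasi-likelihood test written with MASS and moderated with limma's squeezeVar, a trimmed mean of log ratios, other filters and windows, each position counted once, and IgG positions left out. The fits were also run on simulated data with known changes. Those data were not matched to the spread between these libraries, so no power is read from them. Single values per library were set against each other with exact permutation tests (scipy 1.17.1), and equal depth was reached with the hypergeometric formula.

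Libraries were grouped by their titles. Only the 4 immunoprecipitates entered the fits. Named windows are the 15 with the highest mean CPM and, since fewer than 5 passed, the 8 with the lowest unadjusted p in each direction. Named nucleotides are the 10 strongest of each fraction, and named chromosomes those with the highest and lowest log2 fold change. Chromosome 17 was added after its values were seen. The libraries, lists and rules were chosen with earlier results of these data known. Coordinates are 1-based. The gene name and marker lists that had been prepared need an annotation of mm9 and were not used here.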

Additional observations from a re-analysis of the deposited data

Results flagged for a closer look

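Events on unplaced contigs lie outside every comparison above. They made up 0.268% of the events in poly 1 and 0.207% in poly 2, against 0.17% in the polysomal library titled IgG. In mono 1 they made up 0.304% and in mono 2 0.359%, against 0 of 1153 events in the monosomal library titled IgG, which allows a share of up to 0.260% by the 3-event limit. The exact 95% upper bound for 0 of 1153 events is 0.319%, above the share of mono 1. These shares are given because they exceed those of the IgG libraries. Each fraction has only 1 IgG library, and the difference was not tested.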

How the results depend on the processing

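No window and no chromosome was called with the total scaling, under any other filter, scaling, window size, test or left-out library except those named here. With the replicate block (replicate number as a term) 19 windows were called, 13 higher and 6 lower in the polysomal fraction, and 2 chromosomes, 15 higher and 17 lower. Replicate-1-minus-replicate-2 differences of the fractions correlated with r = 0.40 over 620 windows, which with 2 pairs does not pair the libraries. Without a filter 23 of 48043 windows were called, 20 higher and 3 lower. With a library left out, the other fraction alone gives the spread, so 0 calls there say little. Of 348 values of the 27 named windows under alternatives, 334 kept direction and call, although sizes shifted in the narrow windows as given above, 11 passed the threshold (8 under the block) and 3 turned positive: chr17:80600001-80605000 (0.046) and chr19:5795001-5800000 (0.16) without mono 1, in ranges from -1.70 and from -1.51 over the left-out libraries, and chr16:33045001-33050000 with each position counted once (0.52). The difference in the share of the 10 strongest positions was -0.0426 percentage points without IgG positions and 2.40 to 2.95 with a library left out. That of the 100 and 1000 strongest ranged from 2.88 to 5.18 and from 2.78 to 13.9 (0.337 and 6.90 without IgG positions), that of nucleotides at equal depth from -3102 to -417 and that of the mitochondrial share from -0.121 to -0.0502. The difference in windows at equal depth, 499 with all libraries, ranged from -528 (without poly 1) to 1526 and was -721 within replicate 2. That of the share of events in peaks, 1.46 percentage points, ranged from -6.82 (without poly 2) to 9.74 and was -6.81 within replicate 1. Depth limits all values: 18357 events in the shallowest library leave most windows with a few events.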
